A study of Mus musculus with 7 samples.

Results

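The proliferins Prl2c2, Prl2c3 and Prl2c5 are 3 of the 54409 features with a gene symbol in a count table of 7 RNA sequencing libraries from C3H10T1/2 cells, an established mouse mesenchymal line. The members form a named gene family and were selected on their control and OB counts in these same libraries, so their levels and fold changes are given as a description without a test. The control group held 3 libraries of cells left untreated in medium with 10% fetal bovine serum. The OB group held 4 libraries of cells grown for 3 days in that medium plus dexamethasone (a synthetic glucocorticoid), 10 mM β-glycerophosphate and 50 µM ascorbic acid, to induce osteoblast differentiation. All libraries came from 1 cell line, no allele was altered, and the labels name no control for the separate agents. The submitters' design text calls the replicates biological. Their sample descriptions also split the libraries into sets, with control 1 and OB 1 under C1, control 2 and OB 2 under C2, and control 3, OB 3 and OB 4 under no C number.

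Proliferins are secreted glycoproteins of the prolactin and growth hormone family. In the mouse they are made mainly by trophoblast giant cells of the placenta, where they act on blood vessel growth, and they were first found as transcripts that serum raises in growing fibroblast lines. The secreted protein carries mannose 6-phosphate and binds the mannose 6-phosphate receptor Igf2r, and proliferin gene regulation is a textbook case in which AP-1 factors and the glucocorticoid receptor meet at a composite DNA element.

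Of the 3 genes, Prl2c2 had the highest level per kb of exon in each of the 7 libraries, Prl2c3 came next and Prl2c5 was at or near 0. Both Prl2c2 and Prl2c3 were far higher in control 3 than in any other library. Prl2c3 was lower in every OB library than in every control library, whereas for Prl2c2 the OB libraries lay on both sides of control 1 and 2. The share of Prl2c3 in the proliferin counts of the OB libraries was 11.2% ± 3.64 (SD, n = 4) against 26.7% ± 6.55 (SD, n = 3) in control.

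The 3 genes lie on chromosome 13 of the mm10 build. Prl2c3 (ENSMUSG00000056457) runs from 12790816 to 12800079 on the minus strand, Prl2c2 (ENSMUSG00000079092) from 12996125 to 13005383 on the minus strand, and Prl2c5 (ENSMUSG00000055360) from 13182715 to 13191923 on the plus strand. Gaps of 196045 and 177331 bases separate them. Their exons add up to 1360, 1090 and 1177 bases in the same order, and 0 of these bases overlap another counted feature.

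The coding sequences are nearly the same, which bears on every count below, because a fragment with more than 1 alignment was left out of the counting. Over 672 coding bases Prl2c2 and Prl2c3 differ at 3 positions (99.6% identity), and their longest identical run is 353 bases. Prl2c5 has 20 mismatches and 6 gapped positions against Prl2c2 (96.1%) and 21 and 6 against Prl2c3 (96.0%). A stretch to show was sought only inside single exons of the first 4 coding exons, 498 bases without gaps between the genes. Of the stretches of 60 bases there, the 1 with the most differences is shown to make plain how little tells the genes apart. It lies in exon 4 at chr13:12997407-12997466 for Prl2c2, chr13:12792114-12792173 for Prl2c3 and chr13:13190587-13190646 for Prl2c5, in the GRCm38 transcripts, and reads 5′ to 3′ on each gene's own strand with capitals at the 5 positions where the 3 genes are not all alike:
Prl2c2: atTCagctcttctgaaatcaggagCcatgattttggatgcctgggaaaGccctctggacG
Prl2c3: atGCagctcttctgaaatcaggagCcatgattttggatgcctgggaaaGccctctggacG
Prl2c5: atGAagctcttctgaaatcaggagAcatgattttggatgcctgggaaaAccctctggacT
Of those 5 positions, 1 separates Prl2c2 from Prl2c3. A stretch of the same length in exon 2 is identical in all 3 genes and is shown once, from Prl2c2 at chr13:13002153-13002212, as a run from which no fragment inside it can be assigned:
Prl2c2: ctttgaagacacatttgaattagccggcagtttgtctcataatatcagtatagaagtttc

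How much can be told apart was measured with words, every run of a fixed length in 1 transcript per gene, compared with all GENCODE M21 transcripts. These transcripts held 842, 857 and 844 bases for Prl2c2, Prl2c3 and Prl2c5, against 1090, 1360 and 1177 counted exon bases. Words were not taken from the other exon bases, and sequence outside transcripts was not searched. Of the 50-base words 83 of 793 in Prl2c2 (10.5%), 173 of 808 in Prl2c3 (21.4%) and 488 of 795 in Prl2c5 (61.4%) occurred in no other gene. At 100 bases the shares were 33.6%, 37.7% and 91.3%. Prl2c2 and Prl2c3 shared 635 of their 50-base words with each other. Of the 86 such words of Prl2c2 whose middle lies in its 3′ untranslated region, 0 were unique to it. The remaining genes that shared words were Gm7040 and Prl2c1, and both had 0 counts in all 7 libraries. As fragments with several alignments were not counted, these values do not show that their RNA was absent. The unique share rose with word length. Read and fragment lengths are not given in the materials used here, so the part of each transcript that could be counted was not measured, and the split of counts between Prl2c2 and Prl2c3 is uncertain. The map of unique words shows these parts.

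**Figure D1:**
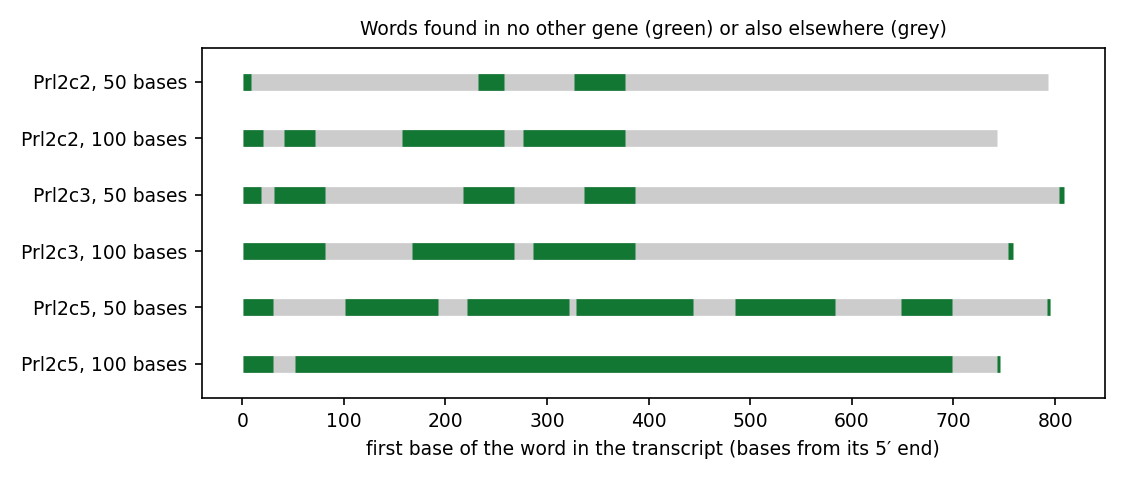
Position of words of 50 and 100 bases found in no other gene (green) or also in another gene (grey) along 1 transcript of each proliferin gene, by the first base of the word counted from the 5′ end. The green parts of Prl2c2 and Prl2c3 are short and lie mostly in the first part of the transcript, at 10.5% and 21.4% of the 50-base words, whereas Prl2c5 is green over 61.4%.

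Prl2c2, the proliferin gene long known as Plf, had counts of 180, 188 and 2417 in control 1, 2 and 3, and of 115, 410, 98 and 59 in OB 1, 2, 3 and 4. As CPM, the count relative to a scaled library total, these were 3.83, 5.35 and 95.9 in control and 4.68, 9.64, 4.54 and 2.44 in OB. Control 3 stood 17.9-fold above the higher of the other controls, and the groups overlapped, since 1 of the 4 OB libraries, OB 4, was below all controls. The control mean was 35.0 ± 52.7 CPM (SD, n = 3) and the OB mean 5.32 ± 3.05 CPM (SD, n = 4), a log2 fold change of -2.70 in the edgeR fit. Without control 3 the control mean was 4.59 CPM and the fitted log2 fold change turned to 0.22, so the lower mean of OB rested on that library. With the replicate number as a block the value was -0.84. In the C1 and C2 sets alone, where OB exceeded control of the same set each time, it was 0.66. In the set with no C number, where control 3 is the only control, it was -4.81.

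Prl2c3, a paralog that encodes a proliferin differing from the Prl2c2 product by few coding bases, had counts of 67, 94 and 606 in control 1, 2 and 3, and of 10, 38, 14 and 11 in OB 1, 2, 3 and 4. These equal 1.43, 2.68 and 24.1 CPM in control and 0.407, 0.893, 0.649 and 0.455 CPM in OB. Control 3 was again the highest, 8.98-fold above the higher of the other controls, but here the lowest control exceeded the highest OB library. The means were 9.38 ± 12.7 CPM (SD, n = 3) and 0.601 ± 0.221 CPM (SD, n = 4), a log2 fold change of -3.92, which became -1.74 without control 3. The value was -1.58 in the C1 and C2 sets and -5.46 in the set with no C number, where control 3 is the only control. OB was thus lower within each set while the size differed. Of the 2 members that passed the filter on low counts, 1 had every OB library below every control library, as did 12.3% of the 15441 genes that passed it, and nothing is read from that count because this contrast chose the members.

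Prl2c5, the copy on the opposite strand, had counts of 1, 2 and 6 in control 1, 2 and 3 and 0 in each OB library, and it did not pass the filter. Its pooled control level was 0.0839 CPM, and 3 counts over the 4 OB libraries would be 0.0266 CPM. Against that floor it was at least 3.16-fold higher in control. The 9 pooled control counts are taken as exact here, with no allowance for their counting error or the spread between libraries. This bound was 1.97-fold without OB 2 and 4.99-fold without control 1, and without control 3 the pooled control count equals the floor and no fold is given. Its low count goes with the largest share of unique words of the 3 genes.

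**Figure D2:**
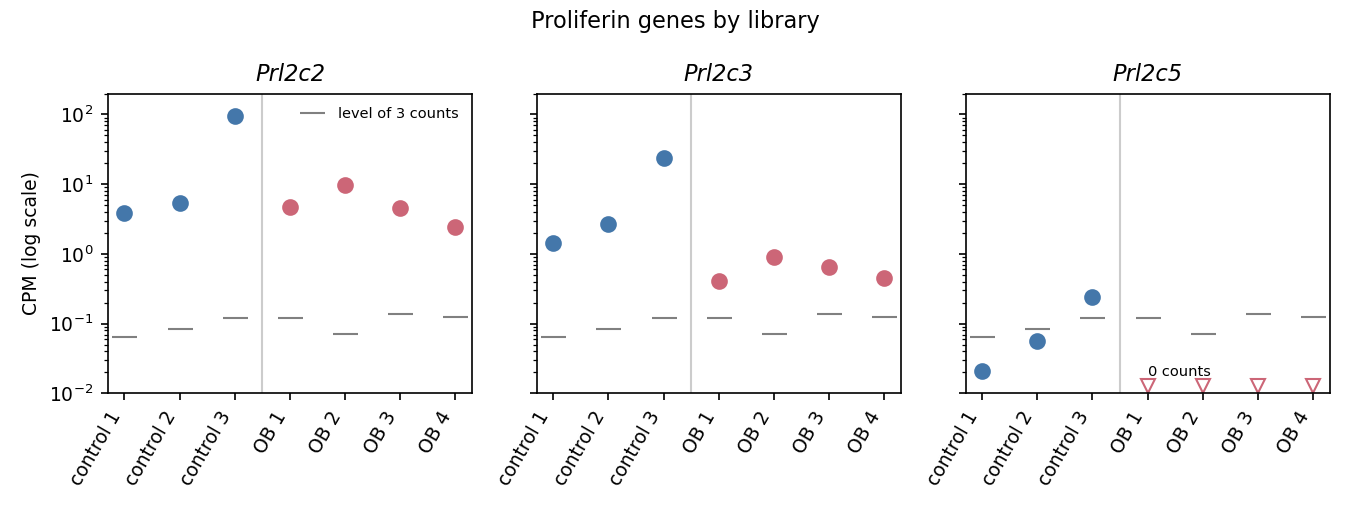
CPM of each proliferin gene in each library on a log axis, control in blue and OB in red, with the level of 3 counts as a grey dash and open triangles at libraries with 0 counts. Control 3 is highest for all 3 genes, the OB points lie on both sides of control 1 and 2 for Prl2c2 (2.44 to 9.64 CPM) and below them for Prl2c3 (0.407 to 0.893 CPM).

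Because the split of fragments between paralogs depends on few bases, the counts of the 3 genes were also added up. The summed level was 5.28, 8.09 and 120 CPM in control 1, 2 and 3, and 5.08, 10.5, 5.19 and 2.90 CPM in OB 1, 2, 3 and 4. OB 2 exceeded control 1 and 2, while the other 3 OB libraries lay below all controls. The control mean was 7.51-fold the OB mean with control 3 and 1.13-fold without it, so most of the difference in the sum was carried by 1 library. The log2 ratio of group means was -2.91, and that of group medians was -0.65.

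The share of Prl2c3 in the summed counts does not depend on library scaling. It was 27.0%, 33.1% and 20.0% in control 1, 2 and 3, with 95% exact binomial intervals of 21.6 to 33.0%, 27.7 to 38.9% and 18.6 to 21.5%. It was 8.0%, 8.48%, 12.5% and 15.7% in OB 1, 2, 3 and 4, with intervals of 3.90 to 14.2%, 6.07 to 11.5%, 7.01 to 20.1% and 8.11 to 26.4%. Every OB share was below every control share, although the interval of OB 3 overlapped that of control 3 and the interval of OB 4 overlapped those of control 1 and control 3. Intervals cover counting error only. The difference of the means was -15.5 percentage points, and with control 3 left out it was -18.9. Like the levels, these shares come from the counts on which the genes were selected and are a description.

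**Figure D3:**
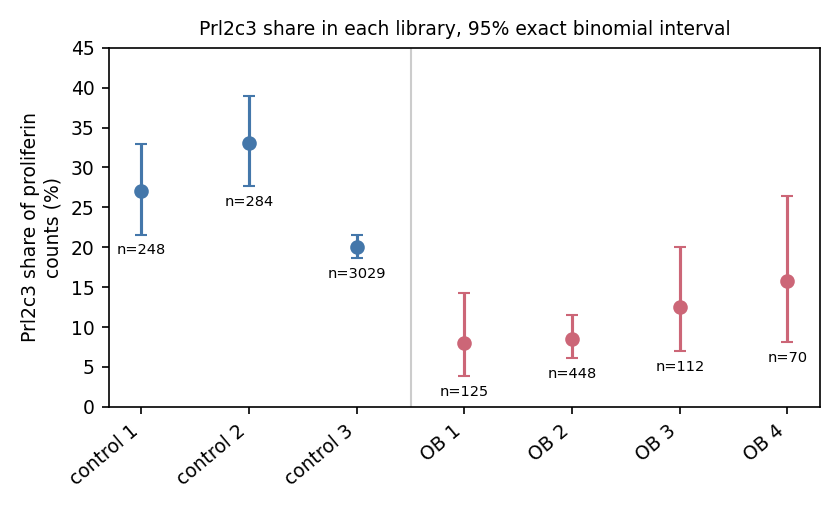
Share of Prl2c3 in the summed counts of the 3 proliferin genes in each library, in percent, with 95% exact binomial intervals and the summed count under each point. The 3 control libraries (blue) sit between 20.0 and 33.1% and the 4 OB libraries (red) between 8.0 and 15.7%.

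Per kb of exon, the level of Prl2c2 was 3.35, 2.5 and 4.98 times that of Prl2c3 in control 1, 2 and 3, and 14.3, 13.5, 8.73 and 6.69 times in OB 1, 2, 3 and 4. The mean ratio was 3.61 ± 1.26 (SD, n = 3) in control and 10.8 ± 3.69 (SD, n = 4) in OB. Scaled instead by the number of unique 50-base words, a setting added after the data were seen, the mean ratios were 6.03 and 18.1, and by unique 100-base words 3.31 and 9.91. The order of the 2 genes was thus the same on each of these scales, whereas the size of the ratio varied with the scale. Unique words came from 1 transcript per gene and not from all counted exon bases. Across libraries the log2 CPM of Prl2c2 and Prl2c3 correlated at r = 0.89 over all 7 and at r = 0.30 over the 6 without control 3, as a description of points that share 2 conditions and paralogous sequence. Within the 4 OB libraries r was 0.78, with OB 2 highest for both genes.

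Control 3 stood apart beyond the proliferins. In 64 of the 15441 genes it was at least 5-fold above both other controls and in 234 at least 5-fold below them, and by this ratio Prl2c2 ranked 10 and Prl2c3 ranked 18 among the genes raised. Total counts were 21213328 to 46530017 per library, with 25689889 in control 3. All 10 proliferation markers were lower in OB, where 574 genes (3.72%) were lower and 667 (4.32%) higher at an edgeR adjusted p under 0.05. These markers added up to 848, 2174 and 2424 CPM in control 1, 2 and 3, against 378 to 552 CPM in the OB libraries. Control 3 was highest with control 2 close to it, whereas the proliferin sum was 8.09 CPM in control 2 and 120 CPM in control 3. The part of the proliferation markers in the proliferin levels was not tested.

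Markers of the usual proliferin source were near 0. Of 10 trophoblast markers, Hand1, Tpbpb, Ctsq and Cdx2 had 0 counts in all libraries, and only Syna passed the filter on low counts. Their summed level was 0.357 to 0.712 CPM in control, lowest in control 3, and 0.745 to 0.917 CPM in OB. The mesenchymal markers Col1a1, Col1a2, Thy1, Vim, Pdgfrb and Ly6a were present in every library, at a summed 25590 to 32150 CPM in control and 18378 to 27522 CPM in OB. Of the osteoblast markers Runx2 alone passed the filter. In bulk RNA, fewer cells of a type and less RNA per cell cannot be told apart.

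The rest of the prolactin family was close to silent. Of 25 listed relatives 24 had an entry of their own in the table, and 14 of these had 0 counts in all libraries. Prl2c1 is among the 14, and the words it shares with the members limit what its 0 counts show. As 0 passed the filter, none was tested in the main edgeR fit, and no result of a fit without that filter is given for them. The highest pooled count was 16, that of Prl7a1, with 14 in control and 2 in OB. Prl2b1 had 12 counts, all in OB 2. These last names were chosen after their values were seen.

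The genes whose log2 CPM most resembled the proliferin sum over the 7 libraries, among 10326 genes compared, were Timm23 (r = 0.997), Pgam1 (0.995), Dtwd1 (0.990), Rars (0.990) and Nutf2 (0.987). Timm23, a channel of mitochondrial protein import, had 49.3, 55.5 and 85.7 CPM in control 1, 2 and 3 and 51.4, 57.4, 51.4 and 46.3 CPM in OB 1, 2, 3 and 4. Pgam1, a glycolytic enzyme, had 169, 195 and 474 CPM in control and 177, 212, 160 and 149 CPM in OB. Both were highest in control 3, and their range was far narrower than that of the proliferins. After centring on the group means the closest were Ppil4 (0.998), Timm23 (0.997), Fam136a (0.996), Lrig1 (0.994) and Fam91a1 (0.994). These correlations are descriptions over 7 libraries, in which control 3 is the farthest point.

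The mannose 6-phosphate receptors Igf2r and M6pr, the prolactin and growth hormone receptors Prlr and Ghr, and the enzymes of mannose 6-phosphate tagging (Gnptab, Gnptg and Nagpa) made up a list of 7 genes, of which 6 were tested. The edgeR test at an adjusted p under 0.05 called 0 higher and 0 lower, beside 4.32% and 3.72% of all genes tested. At an unadjusted p under 0.05, 3 were higher and 1 lower, beside 12.8% and 12.4% of all genes. The calls of DESeq2 were 3 and 0, beside 6.88% and 6.0% of its genes, and those of limma-voom 2 and 1, beside 8.08% and 7.0%. Igf2r, the receptor that binds proliferin, was at 434, 419 and 325 CPM in control and 273, 314, 306 and 334 CPM in OB, with overlap between control 3 and OB 4. Its log2 fold change was -0.36 ± 0.13 (SE; edgeR adjusted p = 0.143), and without control 3 it was -0.48 (edgeR adjusted p = 0.0442). The mean of Ghr, the growth hormone receptor, was 141 ± 38.4 CPM over the 3 control libraries and 146 ± 15.5 CPM over the 4 OB libraries (± SD). With the replicate number as a block 2 members were called higher and 0 lower, beside 5.38% and 3.38% of all genes, and the 2 were Gnptg with a log2 difference of 0.85 (adjusted p = 0.0191 by edgeR) and Nagpa with 0.59 (edgeR adjusted p = 0.0405). Gnptg encodes a subunit of the enzyme that starts the tag and Nagpa the enzyme that uncovers it, and both were named after their values were seen. The median log2 fold change of the 6 was 0.28, beside -0.0040 over all genes tested. Prlr, the prolactin receptor, did not pass the filter, with 0 counts in control and 24 in OB. Its level was 0.122, 0.447, 0.0927 and 0 CPM in OB 1, 2, 3 and 4, so OB 2 was highest.

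Of 8 receptors for fibroblast mitogens 3 were higher in OB and 0 lower, beside 4.32% and 3.72% of all genes tested, with a median log2 fold change of 0.34. At an unadjusted edgeR p under 0.05 the counts were 4 and 1, beside 12.8% and 12.4% of all genes. By DESeq2 they were 4 and 0, beside 6.88% and 6.0%, and by limma-voom 4 and 0, beside 8.08% and 7.0%. Fgfr2, a fibroblast growth factor receptor, was at 11.2, 14.8 and 8.41 CPM in control and 39.0, 53.4, 73.8 and 90.7 CPM in OB, with no overlap. Its log2 fold change was 2.48 ± 0.33 (SE; edgeR adjusted p = 0.00811). Pdgfra, the platelet-derived growth factor receptor alpha, was at 314, 286 and 140 CPM in control and 670, 639, 749 and 821 CPM in OB, again without overlap (log2 fold change 1.54 ± 0.27 SE, edgeR adjusted p = 0.0182). Egfr, the epidermal growth factor receptor, was at 110, 71.5 and 39.1 CPM in control and 167, 165, 182 and 167 CPM in OB (log2 fold change 1.21 ± 0.30 SE, edgeR adjusted p = 0.0489). In these 3 genes control 3 was the lowest library, the reverse of its place for the proliferins. Egfr did not pass with the replicate number as a block (edgeR adjusted p = 0.0585), with upper-quartile scaling (0.0551), in the C1 and C2 sets alone (0.0606), without control 2 (0.140), or without any 1 of the 4 OB libraries (0.0944 to 0.116). Pdgfra did not pass without control 2 (edgeR adjusted p = 0.0545) or without OB 1 (0.0531). Pdgfrb (log2 fold change 0.10 ± 0.28 SE) and Fgfr1 (0.57 ± 0.17 SE) did not pass in the main fit (edgeR adjusted p = 0.85 and 0.0728). Fgfr1 did pass by DESeq2 (adjusted p = 0.0249), by limma-voom (adjusted p = 0.0286) and with the label-set block (edgeR adjusted p = 0.0397). It did not pass with the replicate number as a block (edgeR adjusted p = 0.0765).

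Of 8 genes for AP-1 subunits and the glucocorticoid receptor 0 were higher and 1 lower in OB by the edgeR test, beside 4.32% and 3.72% of all genes tested, with a median log2 fold change of 0.09. At an unadjusted p under 0.05 the counts were 2 and 1, beside 12.8% and 12.4% of all genes. By DESeq2 they were 0 and 1, beside 6.88% and 6.0%, and by limma-voom 1 and 1, beside 8.08% and 7.0%. Nr3c1, the glucocorticoid receptor, was at 146, 139 and 123 CPM in control and 93.7, 92.9, 91.0 and 98.2 CPM in OB, without overlap. Its log2 fold change was -0.53 ± 0.10 (SE; edgeR adjusted p = 0.0200), and it did not pass without control 2 (0.0764) or without OB 1, OB 2 or OB 3 (0.0534 to 0.0659). Fosl2 and Jun, AP-1 subunits, had log2 fold changes of 0.49 ± 0.17 and 0.19 ± 0.37 (SE) and did not pass (edgeR adjusted p = 0.116 and 0.788). Fosl1, an AP-1 subunit named here after its values were seen, was at 11.0, 12.1 and 57.8 CPM in control 1, 2 and 3 and 15.5, 16.3, 8.62 and 6.50 CPM in OB 1, 2, 3 and 4. It shared with Prl2c2 the highest value in control 3 and an overlap of the groups, and it did not pass (log2 fold change -1.19 ± 0.62 SE, edgeR adjusted p = 0.270).

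**Figure D4:**
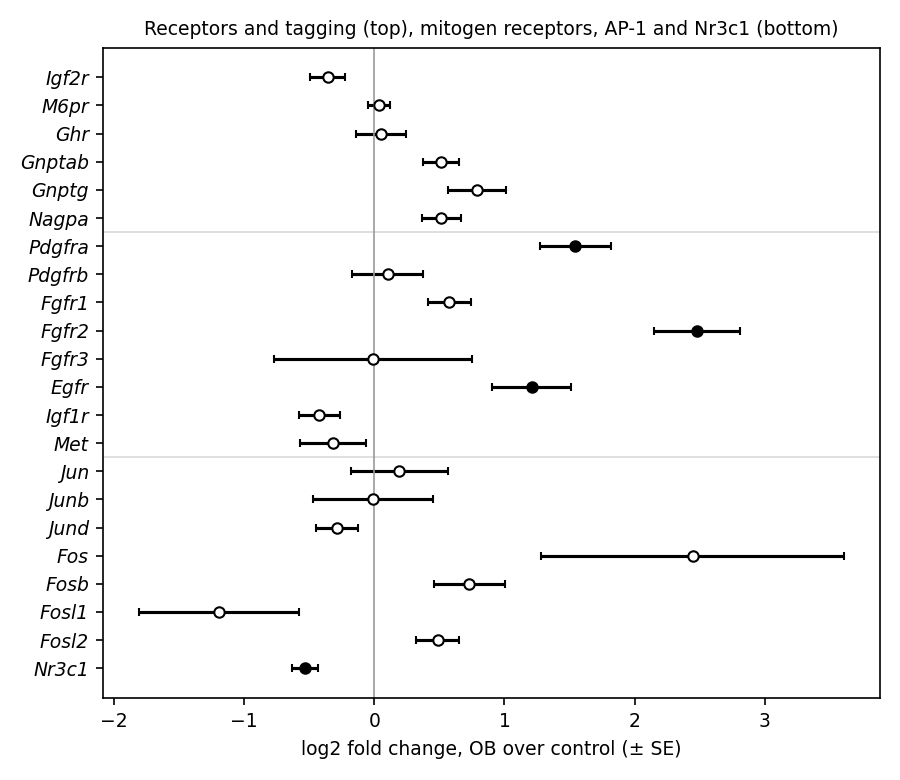
Log2 fold change of OB over control with its SE for the tested receptors and tagging enzymes (top), mitogen receptors (middle) and AP-1 subunits with Nr3c1 (bottom). Filled points passed an edgeR adjusted p of 0.05, which holds for Fgfr2, Pdgfra and Egfr (higher in OB) and Nr3c1 (lower in OB).

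Promoters were read because AP-1 and the glucocorticoid receptor are the known regulators of a proliferin gene. RefSeq promoter sequences of the GRCm38.p6 build were matched for 2 of the 3 members, Prl2c3 and Prl2c5. The 250 bases before each start are chr13:12800080-12800329 on the minus strand for Prl2c3 and chr13:13182466-13182715 on the plus strand for Prl2c5. They are printed 5′ to 3′ with capitals at the 8 mismatched and 1 gapped positions of their alignment (96.4% identity):
Prl2c3: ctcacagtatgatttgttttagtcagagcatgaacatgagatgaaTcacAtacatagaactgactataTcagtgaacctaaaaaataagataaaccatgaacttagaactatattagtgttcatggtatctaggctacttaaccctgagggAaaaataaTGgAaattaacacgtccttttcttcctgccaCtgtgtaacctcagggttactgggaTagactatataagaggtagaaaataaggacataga
Prl2c5: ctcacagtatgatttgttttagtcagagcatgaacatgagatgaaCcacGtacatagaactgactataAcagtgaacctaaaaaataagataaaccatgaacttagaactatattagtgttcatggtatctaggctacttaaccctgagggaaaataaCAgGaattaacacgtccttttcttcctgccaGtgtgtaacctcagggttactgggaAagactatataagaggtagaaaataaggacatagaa
The AP-1 motif TGANTCA, whose reverse complement reads the same, had 1 match in Prl2c3, as TGAATCA with its first base 209 bases upstream of the start, and 0 in Prl2c5. The match holds 1 of the positions in capitals. Of 32544 distinct promoters of 300 bases 7.79% held this motif. The motifs TGACGTCA (1.80% of promoters), AGAACA (18.9%) and TATAAA (13.6%), the full glucocorticoid site (0.0092%) and the CArG box (1.64%) had 0 matches in either promoter on both strands. Only exact matches were sought. A count of 0, that of the AP-1 motif in Prl2c5 included, says only that these letters are not in this window. Sites that depart from these letters, such as those of a composite element, were not searched.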

How the data were processed

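Messenger RNA of 3 control and 4 OB libraries was sequenced after Trizol extraction with a TruSeq v2 kit, per the labels' protocols. Trimmomatic, HISAT2 and mm10 are named in the submitters' processing notes, with no version. The deposited values are raw counts of fragments on each gene by featureCounts 1.6.4, per the file headers, over exons of Ensembl 94, without strand, and fragments with several alignments or several overlapped genes were not counted. Columns are numbered, and the input order of the counting command in the file headers gave each its sample, which could not be checked otherwise. All 7 columns of counts were matched.

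Counts were fitted in R 4.3.3 with edgeR 4.0.16 (filterByExpr, TMM, quasi-likelihood test, Benjamini-Hochberg over 15441 genes, threshold 0.05). The fit was also run on simulated counts. These held no outlying library and no label-set effect, so that run does not cover them. SE is the log2 fold change divided by the root of F. Log2 CPM for correlations used a prior count of 2. Prl2c5 did not pass the filter, so a bound against 3 counts replaces its planned fitted value. The members, lists and tests were chosen with earlier results of these data known. Named were the 3 members, up to 4 called genes of each list in order of p with the 2 others of highest expression, and the 5 genes most correlated with the summed counts. Transcripts were GENCODE M21 (GRCm38), aligned with Biopython 1.88, and promoters RefSeq GRCm38.p6.

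Pairing by replicate number was checked through correlated deviations from the group means, which were 0.17, 0.52 and 0.40 for numbers 1, 2 and 3. Each exceeded the bound of 0.1. Libraries of unlike number were not compared and the numbers follow the label sets, so this check cannot show pairing by number. OB 4 has no partner. The main fit therefore held no block, and the replicate block was run as an alternative. Alternatives were DESeq2 1.42.0, limma-voom (limma 3.58.1), other scalings, no filter, blocks, single label sets and leaving out each library.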

Additional observations from a re-analysis of the deposited data

Results flagged for a closer look

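In 4 genes of the tested lists 1 OB library lay far from the other 3, with a gap to its neighbour that made up more than 0.829 of the range of the 4 libraries. In Gnptab, which encodes the catalytic subunits of the mannose 6-phosphate tagging enzyme, OB 2 was low at 96.5 CPM against 121 to 125 CPM, a gap of 0.860 of the range. In Egfr OB 3 was high at 182 CPM against 165 to 167 CPM (0.842), and in Igf1r, the insulin-like growth factor receptor, OB 4 was high at 199 CPM against 157 to 163 CPM (0.842). In Jun OB 1 was high at 194 CPM against 91.2 to 101 CPM (0.901). Chance alone puts about 1 in 20 such groups past this bound. The proliferin levels of the OB libraries did not pass it, with gaps of 0.689, 0.502 and 0.699 for Prl2c2, Prl2c3 and their sum, and the 3 control libraries are too few for it.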

How the results depend on the processing

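The share of Prl2c3 was lower in OB under every alternative run, from -11.9 points with pooled counts to -18.9. Leaving out 1 library at a time gave log2 fold changes of -3.25 to 0.22 for Prl2c2, -4.45 to -1.74 for Prl2c3 and -3.44 to -0.17 for the sum, and a bound of -2.32 to -0.98 for Prl2c5, with control 3 setting the upper end of the first 3. With the C1 and C2 sets only, Prl2c2 was at 0.66, Prl2c3 at -1.58 and the sum at 0.22. With the set of no C number, where control 3 is the only control, they were at -4.81, -5.46 and -4.89. Limma-voom, whose quality weight for control 3 was 0.210 against 0.685 to 2.17 for the others, gave -0.26 for Prl2c2 and -1.99 for Prl2c3. Group medians gave -0.65 for the sum, and the replicate block gave -0.84 for Prl2c2. No filter, the other tools, the blocks, the C1 and C2 sets, and leaving out control 3 gave no bound for Prl2c5.

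All genes called higher (667) and lower (574) came to 190 to 575 and 104 to 703 with 1 library left out. The label-set block gave 1433 and 1256, the set of no C number 3052 and 3413, DESeq2 1292 and 1128, and limma-voom 1247 and 1081; the C1 and C2 sets gave 1030 higher. For receptors and tagging the calls were 2 higher under the replicate block, 3 under the label-set block and DESeq2, 4 in the set of no C number, 2 higher with 1 lower in the C1 and C2 sets and by limma-voom, and 0 to 1 each way with 1 library left out. Mitogen receptors had 1 lower under the label-set block, and 1 to 3 higher with 1 library left out. AP-1 genes had 3 higher in the C1 and C2 sets, 1 higher by limma-voom, 1 higher and 6 lower in the set of no C number, and 0 to 1 lower with 1 library left out. The replicate block moved no other count by over 1.5 times. The cause of these shifts was not tested. In the C1 and C2 sets 560 of all genes were called lower. The list counts shifted together with the counts over all genes, so they are not a separate result. For the label-set block, the single label sets and the leave-out runs the number of genes tested is not given. No share of all genes is therefore set beside their list counts. The set of no C number holds a single control library, so nothing is read from its calls. Counts of 10 to 38 for Prl2c3 in OB, and 0 for Prl2c5, limit precision, and paralog identity limits which fragments could be counted.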
